A study of Mus musculus with 216 samples.

Results

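The 12 libraries of heart from 27-month-old mice, 1 for each circadian time from 18 to 62 h in steps of 4 h, were taken from a series of 216 libraries and described by the 24 h rhythm of each gene. The series covers 6 tissues of male C57B6/J-NIA mice at 3 ages, named young (6 months), aged (18 months) and old (27 months) in the labels, with poly(A) RNA sequenced from each tissue, age and time. No other treatment or genotype is named, and the labels do not give the lighting. Each library pooled 2 samples, so that a value is a mean over animals and says nothing of the spread between single mice. Circadian time (CT) is given in hours, the times cover 2 cycles of 24 h, and by convention CT 0 to 12 is the subjective day, the rest phase of a nocturnal mouse. The groups set beside the 27-month heart were the 12 libraries each of 6-month heart, 18-month heart, 27-month kidney and 27-month skeletal muscle.

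The daily clock of a cell is a feedback loop of transcription factors. Arntl (BMAL1) pairs with Clock or Npas2 and switches on the Per and Cry genes, whose proteins then block that pair, while the nuclear receptors Nr1d1 and Nr1d2 repress Arntl and the Ror receptors activate it. The PAR bZIP factors Dbp, Tef and Hlf and their opponent Nfil3 pass the rhythm on to other genes through the D-box. In heart muscle the clock is known to time substrate use, ion channel expression and the response to load.

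Total counts of the 12 libraries ran from 12.3 M to 21.0 M (M is the SI prefix mega) with a median of 14.6 M, against medians of 11.4 M in 6-month and 13.6 M in 18-month heart. Of the cell type marker sets, that of cardiomyocytes had the highest sum in every library. Its 7 markers summed to 35577 to 42385 CPM (counts over the total of that library in M). None of the 7 had a called rhythm. Of the atrial markers, Myl7 reached at most 2.21 CPM and Sln at most 0.139 CPM, so these markers of atrial muscle were near 0, while Nppa, which ventricle also makes, was at 159 to 756 CPM. Markers of lung and thymus were at or near 0, and outside the clock the called cell type markers were Kdr of endothelium and Col1a1 and Pdgfra of fibroblasts. The libraries at CT 38 and CT 50 stood apart in liver transcripts: albumin (Alb) was at 291 and 191 CPM there and at most 5.67 CPM in the other 10 libraries. The number called without those 2 libraries is given beside each list where it moved by over 1.5 times. Such a number is to be read against all genes, where the calls fell from 820 to 447. In whole tissue, fewer cells of a type and less RNA per cell cannot be told apart.

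A 24 h cosine was called for 820 of 14805 genes tested in 27-month heart, which is 5.54% (edgeR's quasi-likelihood F test, Benjamini-Hochberg adjusted p under 0.05). There were 3683 genes at an unadjusted p under 0.05. With 1 library per time the spread is that of the pooled libraries of all 3 ages around their fitted curves. The same fit called 1640 genes (11.1%) in 6-month and 694 (4.69%) in 18-month heart. Of the 820 genes, 431 were also called at 6 months and 312 at 18 months, which is 52.6% and 38.05% of them and 26.3% and 45.0% of the calls at those ages. All 3 ages called 273. The count of 820 was 474 without the library at CT 54, 543 without that at CT 58, 447 without those at CT 38 and CT 50, and 320 when the 27-month libraries were fitted by themselves. It was 1144 without CT 42, 1271 with DESeq2 and 1963 without filter on low counts.

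Rhythms were mostly shallow. The amplitude, the distance from the mean to the peak of the curve on the log2 CPM scale, had a median of 0.31 over the called genes and 0.14 over all genes tested, and the median peak was 1.55-fold above the trough. Amplitude exceeded 0.5 in 163 of the called genes and 1 in 17. When the 6 times of each cycle were fitted alone, the peaks of the 2 cycles differed by a median of 1.31 h in the called genes and 3.39 h in all genes, and 575 of the 820 agreed within 2 h. These cycle values come from the libraries that made the calls and are given as a description.

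Peak times were spread over the whole day, with the most called genes between CT 0 and 4 (22.1% of them, against 14.8% of all genes tested) and between CT 16 and 20 (19.8% against 21.5%). By window of 4 h starting at CT 0, the called genes numbered 181, 135, 124, 99, 162 and 119. The median amplitude was highest for peaks at CT 0 to 4, at 0.38, and lowest for peaks at CT 16 to 20, at 0.26. In bins of 2 h the counts were highest at CT 2 to 4 (93 genes) and lowest at CT 12 to 14 (46 genes).

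**Figure D1:**
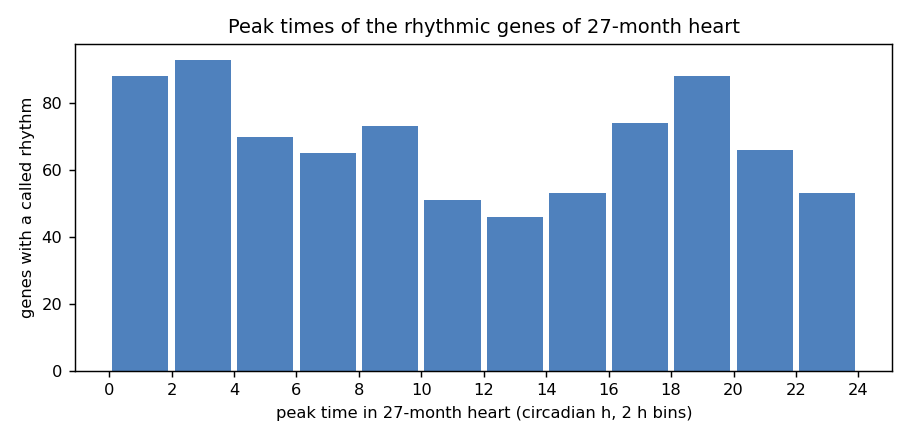
Number of genes with a called 24 h rhythm in 27-month heart (y axis) by fitted peak time in 2 h bins (x axis, circadian hours). The bars range from 46 genes at CT 12 to 14 to 93 at CT 2 to 4, and the bin at CT 18 to 20 holds 88.

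Upstream sequences of 5 clock genes are shown because these genes carry the rhythms described next and their promoters hold a motif of a clock factor. They are from RefSeq on GRCm38.p6 and give the 250 bases before the annotated start, 5′ to 3′ on the gene's strand. Capitals mark the E-box CACGTG, to which Arntl and Clock are known to bind, the D-box TTATGTAA, the site of Dbp and Nfil3, or the Ror element TAGGTCA in either orientation. Per1 and Tef were chosen for their place in the clock, and Ciart, Per3 and Nfil3 after their letters were seen. The Per1 window is chr11:69098699-69098948 (+), Tef chr15:81802423-81802672 (+), Ciart chr3:95882229-95882478 (−), Per3 chr4:151044666-151044915 (−) and Nfil3 chr13:52981040-52981289 (−).
Per1: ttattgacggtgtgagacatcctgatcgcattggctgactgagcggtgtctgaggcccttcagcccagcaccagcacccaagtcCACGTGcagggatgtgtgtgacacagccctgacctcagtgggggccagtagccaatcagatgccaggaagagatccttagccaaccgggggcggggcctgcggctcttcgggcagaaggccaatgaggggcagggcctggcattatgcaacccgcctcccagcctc
Tef: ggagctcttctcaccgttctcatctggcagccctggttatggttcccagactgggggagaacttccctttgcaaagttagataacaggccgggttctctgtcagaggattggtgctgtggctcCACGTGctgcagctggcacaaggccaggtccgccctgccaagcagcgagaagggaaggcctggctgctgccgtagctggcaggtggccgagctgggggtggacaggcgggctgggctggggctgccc
Ciart: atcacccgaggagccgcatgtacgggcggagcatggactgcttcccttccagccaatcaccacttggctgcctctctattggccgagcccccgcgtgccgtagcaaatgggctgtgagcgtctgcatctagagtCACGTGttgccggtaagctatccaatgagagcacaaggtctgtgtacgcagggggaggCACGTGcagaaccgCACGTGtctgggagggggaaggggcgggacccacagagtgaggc
Per3: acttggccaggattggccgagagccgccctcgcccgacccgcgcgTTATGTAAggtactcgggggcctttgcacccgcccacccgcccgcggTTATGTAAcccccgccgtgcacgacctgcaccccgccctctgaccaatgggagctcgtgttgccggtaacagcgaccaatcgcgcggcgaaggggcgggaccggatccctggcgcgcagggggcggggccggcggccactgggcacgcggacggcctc
Nfil3: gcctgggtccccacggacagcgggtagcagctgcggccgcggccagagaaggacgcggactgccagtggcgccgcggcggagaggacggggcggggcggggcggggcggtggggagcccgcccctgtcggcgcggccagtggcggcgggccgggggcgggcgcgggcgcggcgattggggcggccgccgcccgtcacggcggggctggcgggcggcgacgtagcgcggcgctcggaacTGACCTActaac

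The windows of Dbp, Nr1d1 and Clock and a second annotated start of Per1 held none of these 3 motifs. The E-box begins 166 bases before the start in Per1 and 127 before it in Tef, and Ciart holds 3, at 116, 58 and 44 bases before its start. Per3 holds a pair of D-boxes 205 and 158 bases before its start, and Nfil3 a Ror element 12 bases before it. Motifs were searched on both strands in 300 bases, from 250 before to 50 after the start. A gene was counted if the window of any of its annotated starts held the motif. An E-box stood in 6 of the 18 called clock and output genes that had a promoter in the table (33.3%). Among genes with a promoter, it stood in 11.5% of all genes tested and in 13.4% of all called genes. Counted by single promoter and not by gene, it stood in 7.15% of all promoters in the table. By peak window the share was highest, 17.5%, for genes peaking at CT 8 to 12, and 10.5% for those peaking at CT 0 to 4. The D-box stood in 1.71% of the called genes and 0.732% of all genes tested, and the Ror element in 3.27% and 2.27%. These shares describe letters in a window and are no evidence of binding.

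Of the activating arm of the clock, Arntl (chr7:113178471-113314126, GRCm38.p6) had a called rhythm of 11.4-fold from trough to peak. Its level was lowest at CT 62 with 2.64 CPM, had a median of 13.4 CPM and was highest at CT 26 with 31.6 CPM. The 3 libraries at CT 26, 46 and 50 were the highest and the 3 at CT 38, 58 and 62 the lowest. The log2 amplitude was 1.76 ± 0.15 (SE of the fit, n = 12 libraries), the peak CT 0.75 ± 0.32 h and the adjusted p 8.36e-08. Its partners followed closely: Npas2 ran from 1.74 to 8.65 CPM with a peak at CT 1.999, and Clock from 40.9 to 83.3 CPM with a peak at CT 1.96. Their log2 amplitudes were 0.93 and 0.35, so Clock had a shallower rhythm than the other two.

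Of the receptors that repress Arntl, Nr1d1 had the smallest p of all genes. It was at 19.6 CPM at CT 18, had a median of 68.3 CPM and was highest at CT 54 with 213 CPM, and its adjusted p was 3.72e-13. Nr1d1 was high at CT 30 and 54 and low at CT 18, 22 and 42, with a peak at CT 7.16 ± 0.25 h. Nr1d2 ran from 58.6 CPM at CT 22 to 233 CPM at CT 58 and peaked later, at CT 10.7. Rora, a receptor that activates Arntl, lay between 42.5 and 54.8 CPM and did not pass (adjusted p = 0.14).

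The Per genes peaked around the end of the subjective day. Per2 (chr1:91415977-91459351) was lowest at CT 26 with 7.89 CPM, had a median of 22.1 CPM and was highest at CT 38 with 66.5 CPM. High values of Per2 fell at CT 38, 58 and 62, the fitted peak was CT 13.3 ± 0.48 h and the adjusted p 4.91e-05. Per3 ran from 15.4 to 75.3 CPM with a peak at CT 11.5 (adjusted p = 8.8e-07). Per1 ran from 13.1 to 94.4 CPM with a peak at CT 12.2, and its adjusted p of 0.0295 was the weakest of the 3. The Per1 call was lost without 1 library (adjusted p = 0.0972 without CT 58) and without CT 38 and 50 (0.141).

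The other repressors fell on both sides of the Per genes. Cry1 peaked at CT 18.7 with 10.6 to 27.7 CPM, and Cry2 at CT 11.4 with 34.7 to 65.4 CPM. Ciart (CHRONO, a repressor of the Arntl and Clock pair) ran from 2.72 CPM at CT 46 to 30.03 CPM at CT 34, with a log2 amplitude of 1.502 ± 0.17. Bhlhe40 and Bhlhe41, which compete at E-boxes, peaked at CT 8.20 and CT 9.72. In all, 14 of the 18 core clock genes tested were called, against 5.54% of all genes, 15 at 6 months and 14 at 18 months. Those that did not pass included Rora and the kinases Csnk1d (adjusted p = 0.623) and Csnk1e (0.274).

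**Figure D2:**
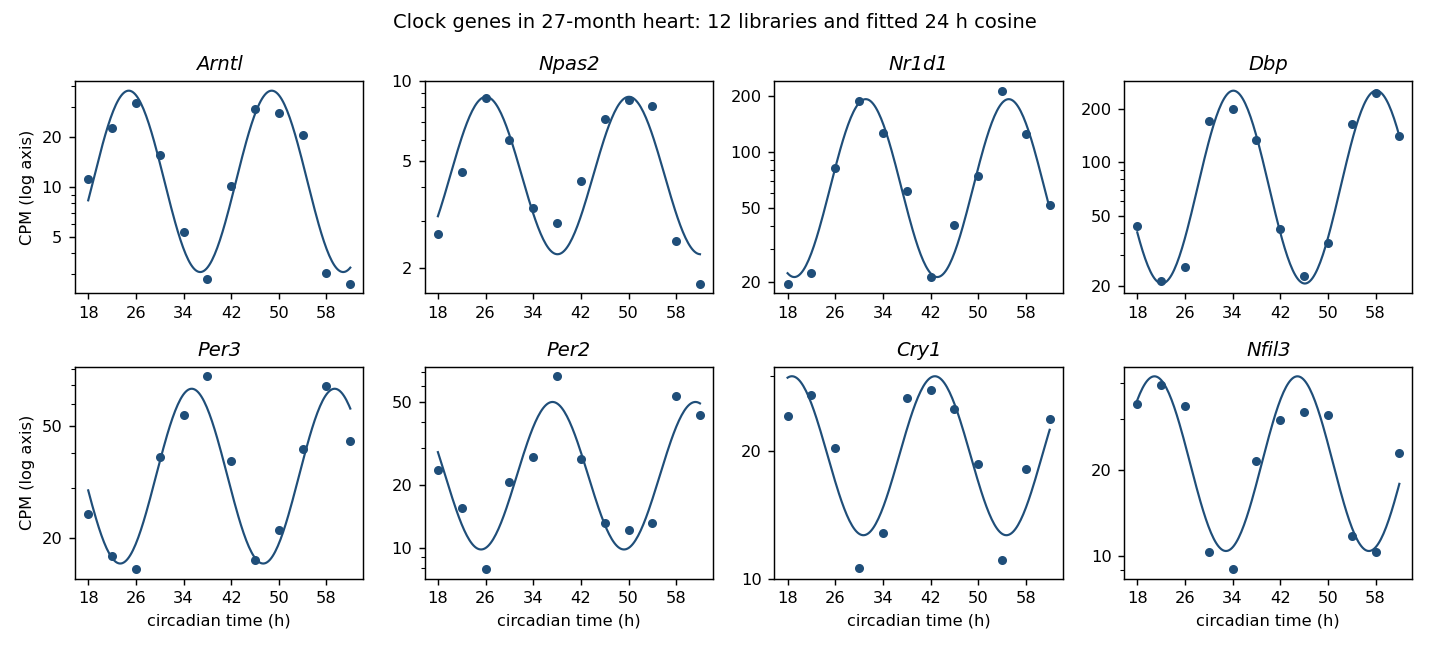
CPM on a log axis (y) against circadian time in hours (x) for 8 clock genes in the 12 libraries of 27-month heart. Points are single libraries and lines the 24 h cosine fitted to log2 CPM, and Arntl and Npas2 peak near CT 0 to 2, Nr1d1 at CT 7.16, Dbp and Per3 at CT 10.2 and 11.5, Per2 at CT 13.3, and Cry1 and Nfil3 at CT 18.7 and 20.8.

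Among the outputs, Dbp was lowest at CT 22 with 21.3 CPM, had a median of 88.2 CPM and was highest at CT 58 with 246 CPM. All libraries at CT 30, 34, 38, 54, 58 and 62 held at least 133 CPM of Dbp, and the other 6 at most 43.8 CPM. Its log2 amplitude was 1.79 ± 0.11, or 11.99-fold, with a peak at CT 10.2 ± 0.23 h (adjusted p = 6.84e-10). Tef (120 to 334 CPM, peak CT 12.4) and Hlf (15.0 to 52.9 CPM, peak CT 12.8) came later, and Nfil3 was in the opposite phase, from 9.03 CPM at CT 34 to 39.5 CPM at CT 22 with a peak at CT 20.8. The list of outputs had 8 of 12 members called, against 5.54% of all genes. Usp2, a ubiquitin protease, peaked at CT 12.3, Wee1, a mitotic kinase, at CT 14.2, Nampt, which makes the NAD precursor, at CT 14.9, and the tetraspanin Tspan4 at CT 12.9. Klf10, Klf11, Por and Lpin1 did not pass, with adjusted p of 0.19, 0.391, 0.177 and 0.596.

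Over the 12 libraries, the log2 CPM most like that of Arntl among 14111 genes was that of Fam124b (Pearson r = 0.98), followed by Foxs1, Sema4c, Leo1 and Rrad (r of 0.94 to 0.95). Hlf, Usp2 and Tef were the most opposite (r of -0.98, -0.97 and -0.97). Nr1d2 and Ciart were the most like Dbp (r = 0.97 and 0.93), then Bhlhe41, Ipo11 and Lancl2, and Lonrf3 the most opposite (r = -0.96). The points share their libraries and these values are a description of likeness in time.

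The extracellular matrix list had the most called genes outside the clock, with 15 of 25 called (5.54% of all genes). At 6 months 11 were called (11.1% of all genes) and at 18 months 9 (4.69%). Its members, like those of the other lists, were chosen with earlier results of these data known, so these counts are a description. The median log2 amplitude of the list was 0.40 in 27-month, 0.22 in 6-month and 0.32 in 18-month heart, and that of all genes tested 0.14, 0.14 and 0.11. Of the 15 called, 13 peaked between CT 1.88 and CT 4.98, with fibrillar collagens (Col1a1, Col1a2, Col3a1, Col5a1), basement membrane collagens (Col4a1, Col4a2, Col15a1) and Col6a1 among them. Col3a1, a fibrillar collagen, was lowest at CT 38 with 59.5 CPM, had a median of 159 CPM and was highest at CT 50 with 593 CPM. The next highest library was CT 26 with 311 CPM, so both libraries at CT 2 of their cycle were the highest. Its adjusted p was 0.000348, and the peak CT 3.55.

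Lox, which crosslinks collagen, ran from 2.36 CPM at CT 62 to 34.4 CPM at CT 50, and the second highest value was 11.2 CPM at CT 26 (adjusted p = 0.00023). Mmp14, a membrane-bound matrix protease, ran from 15.3 CPM at CT 38 to 48.4 CPM at CT 50 with 47.1 CPM at CT 26, and had the smallest adjusted p of the list, 1.29e-07. Among inhibitors of such proteases, Timp1 peaked at CT 1.88 and Timp3 in the opposite phase at CT 14.4, from 201 to 459 CPM (adjusted p = 0.000333). Serpinh1 (HSP47), the collagen chaperone of the endoplasmic reticulum, peaked at CT 21.4. Of the genes with the largest amplitude in the windows CT 0 to 4 and CT 4 to 8, 4 that were not on the list also make matrix proteins or act on them, picked out after their values were seen. They were Adamts4, a protease of proteoglycans (0 to 3.70 CPM, peak CT 1.77, log2 amplitude 1.83), Spon2, a secreted matrix protein (1.14 to 22.5 CPM, CT 2.27), the collagen Col5a3 (7.79 to 45.2 CPM, CT 4.09) and fibrillin Fbn1 (35.96 to 180.4 CPM, CT 4.16). Adamts4 had no count at CT 38, where 3 counts would be 0.201 CPM.

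The library at CT 50 held the highest value of 10 of the 15 called matrix genes, and that at CT 38 the lowest of 11. Both are the libraries with liver transcripts. Without CT 50, 10 of the 25 members were called, and without both 9, and the 27-month libraries fitted by themselves gave 6. Over all genes the calls went from 820 to 590, 447 and 320, in the same order. The 15 had a median log2 amplitude of 0.44 with all libraries, 0.42 without CT 50 and 0.35 without both. Col3a1, Col1a1, Lox and Mmp14 still passed without both (adjusted p = 0.00677, 0.0214, 0.0318 and 2.47e-05). Their log2 amplitudes fell from 0.92 to 0.57 in Col3a1, from 0.80 to 0.46 in Col1a1, from 0.99 to 0.69 in Lox and from 0.65 to 0.56 in Mmp14. Col1a2, Fn1 and Postn did not pass (0.493, 0.283 and 0.302). Of the 5 fibroblast markers, Pdgfra was called besides Col1a1, and Dcn, Lum and Tcf21 were not. The other 4 markers without Col1a1 summed to 659 CPM at CT 62, 662 at CT 38 and 659 to 929 CPM over all libraries, with 920 CPM at CT 50. Macrophage markers summed to 179 to 366 CPM, with the highest sum at CT 50, and none of the 5 was called. The part of fibroblast or macrophage content and of the liver transcripts in the matrix rhythm was not tested.

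**Figure D3:**
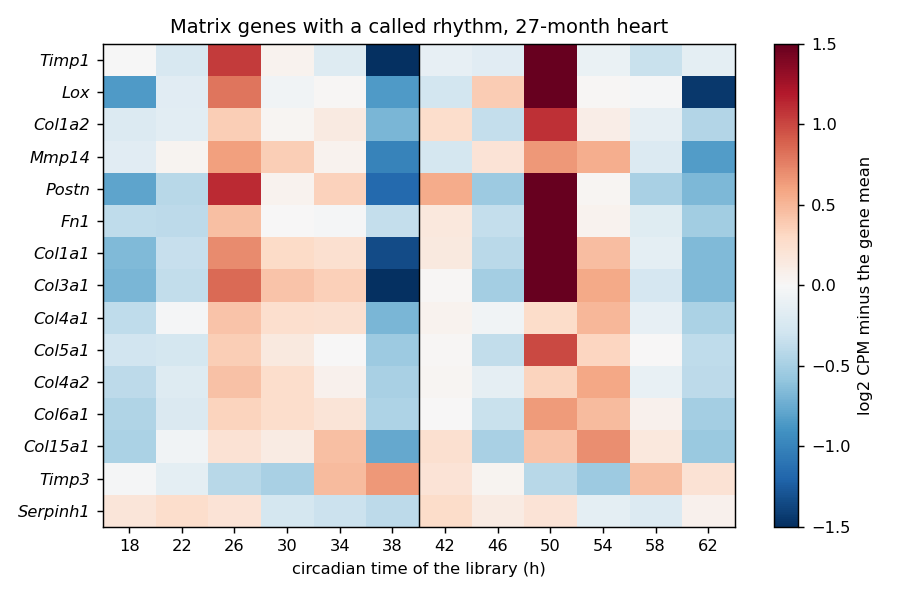
Log2 CPM minus the gene mean (colour, cut off at 1.5 either way) for the 15 called extracellular matrix genes (rows, ordered by peak time) in the 12 libraries of 27-month heart (columns, circadian time in hours, the line parts the 2 cycles). Most rows are red at CT 26 and CT 50 and blue at CT 38, with Timp3 and Serpinh1 in other phases, and the column at CT 50 is the strongest.

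Some genes known to respond to load or to glucocorticoid hormone were called. Of 10 natriuretic and load-responsive genes 3 were called (5.54% of all genes), 2 at 6 months and 4 at 18 months, and 1 without CT 38 and 50. The median amplitude of the list was 0.60 against 0.15 at 6 months and 0.49 at 18 months. Nppb, the B-type natriuretic peptide, ran from 157 CPM at CT 58 to 763 CPM at CT 22 and peaked at CT 23.4 (adjusted p = 0.0314, 0.119 without CT 22 and 0.102 without CT 38 and 50). Rcan1, an inhibitor of calcineurin, ran from 97.7 to 316 CPM with a peak at CT 0.30 (0.0012). Ccn2 (connective tissue growth factor) ran from 60.0 to 210 CPM with a peak at CT 1.55 (0.00918, and 0.0642 without CT 38 and 50). Nppa had a log2 amplitude of 0.73 and did not pass (adjusted p = 0.0762).

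Of 17 glucocorticoid-responsive genes 9 were called (5.54% of all genes), all with peaks between CT 12.2 and CT 22.5. At 6 months 10 were called (11.1% of all genes) and at 18 months 9 (4.69%). The earliest of the 9, Per1 at CT 12.2, is also on the core clock list. Tsc22d3 (GILZ) ran from 64.8 CPM at CT 50 to 129 CPM at CT 38 with a peak at CT 15.7 (adjusted p = 8.24e-05). Cdkn1a, a brake of the cell cycle, ran from 21.3 CPM at CT 58 to 69.7 CPM at CT 46 with a peak at CT 22.5 (0.000215). Ddit4, an inhibitor of the mTOR pathway, peaked at CT 18.8 with 26.6 to 88.1 CPM, and Pik3r1, the regulatory subunit of PI3 kinase, at CT 14.6. Fkbp5 peaked at CT 17.3 with 16.2 to 45.0 CPM. Without CT 38 and 50, 4 of the 17 passed, and the 27-month libraries fitted by themselves also gave 4. Over all genes the calls went from 820 to 447 and 320 under these settings. Lost without CT 38 and 50 were Map3k6 (0.0743) and Pik3r1 (0.075), among others.

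Called genes of stress and protein folding peaked in the subjective night. Of 24 heat shock and chaperone genes 5 were called (5.54% of all genes), between CT 16.2 and CT 21.6, and 2 without CT 38 and 50. At an unadjusted p under 0.05 were 13 of the 24, and 3683 of the 14805 genes tested. Dnaja1, a co-chaperone, ran from 61.7 CPM at CT 54 to 107 CPM at CT 62 (adjusted p = 0.00616), and Hspb1, a small heat shock protein, from 166 CPM at CT 58 to 277 CPM at CT 22 (0.00369). Dnajb1 peaked at CT 16.2 (0.0137), Ahsa1 at CT 19.6 (0.0397) and Bag3 at CT 18.1 (0.0451), and their calls were lost without 1 library, with adjusted p of 0.0581, 0.107 and 0.123 without CT 62, CT 22 and CT 54. Hspa1a had a log2 amplitude of 0.71 with 1.87 to 7.30 CPM and did not pass (0.0717). In the endoplasmic reticulum list 2 of 22 passed (9.09%, against 5.54% of all genes). Herpud1, of the degradation machinery, ran from 172 to 351 CPM with a peak at CT 15.8 (1.08e-06). The transcription factor Atf4 peaked at CT 17.6 (0.03, and 0.119 without CT 54).

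The metabolic lists ranged from 3.33% to 18.8% called, against 5.54% of all genes. Of 30 genes of fatty acid use 1 passed: Plin5, a lipid droplet coat protein, peaked at CT 21.2 with 92.6 to 189 CPM (adjusted p = 0.0117, and 0.071 without CT 34). Of 21 genes of triglyceride and sterol synthesis 2 passed, and Dgat2, which makes triglyceride, ran from 353 to 633 CPM with a peak at CT 15.96 (2.64e-05). Of 28 glucose and glycogen genes 4 passed (2 without CT 38 and 50), of which Pdp1, which activates pyruvate dehydrogenase, peaked at CT 9.28 (0.00421), and Pfkfb3, which makes an activator of glycolysis, at CT 8.88 (0.02, and 0.0783 without CT 22). Pfkp and Hk1, enzymes of early glycolysis, peaked at CT 1.75 and CT 1.69 (0.0199 and 0.0463, then 0.0967 and 0.215 without CT 26 and 0.165 and 0.185 without CT 38 and 50). Of 16 genes of amino acid use, Prodh and Glul (glutamine synthetase) peaked at CT 17.3 and CT 17.0, and Ppm1k, a phosphatase that activates branched-chain keto acid breakdown, at CT 10.2. No member passed among 20 nuclear genes of oxidative phosphorylation, 13 mitochondrial-encoded genes, 22 ribosomal protein genes, 21 proteasome genes and 15 interferon-induced genes. At an unadjusted p under 0.05 were 12 of the ribosomal and 9 of the proteasome genes, and 3683 of the 14805 genes tested.

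Contractile and electrical genes were read against the 5.54% of all genes called. Tcap (telethonin), which anchors titin at the Z-disc, was the single called gene of 24 in the sarcomere and calcium list, and ran from 702 CPM at CT 50 to 1640 CPM at CT 62 with a peak at CT 11.8 ± 0.59 h (adjusted p = 0.00326). Of 24 ion channel and conduction genes 4 were called (16.7%). Gja1, the ventricular gap junction protein connexin 43, peaked at CT 3.48 (0.00697), and the potassium channels Kcnh2, Kcnd2 and Kcnj3 at CT 10.4, 9.51 and 10.9 (0.0299, 0.0331 and 0.034). The 3 potassium channel calls were lost without 1 library (adjusted p = 0.122 and 0.133 without CT 22 and 0.139 without CT 58), and none of the 24 passed without CT 38 and 50. Of 21 vascular and adrenergic genes 3 were called at 27 months (5.54% of all genes), 13 at 6 months (11.1%) and 5 at 18 months (4.69%). No member passed the test of a difference between 27 and 6 months (lowest adjusted p = 0.657). The 3 were Kdr, the VEGF receptor of endothelium (CT 2.80, 0.00203), the angiotensin receptor Agtr1a and the adrenergic receptor Adrb1, and the calls of Agtr1a and Adrb1 were lost without CT 54 (adjusted p = 0.0968 and 0.174).

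Signalling and splicing lists had a few called members, to be read against the 5.54% of all genes called. Of 22 genes of insulin and growth signalling 5 passed (2 without CT 38 and 50). Among these 5, Pik3r1 and Ddit4 are also on the glucocorticoid list. Pik3ip1, an inhibitor of PI3 kinase, ran from 42.6 to 80.1 CPM with a peak at CT 11.9 (adjusted p = 0.00247). The transcription factor Foxo3 peaked at CT 13.8 and the stress protein Sesn1 at CT 16.6 (0.0431 and 0.047, and 0.14 without CT 38 and 0.145 without CT 54). Of 16 cold-inducible and SR splicing genes 4 passed (1 without CT 38 and 50): the splicing factor Srsf5 ran from 135 to 323 CPM with a peak at CT 7.97 (0.00107), and Tra2b, Tra2a and Srsf10 peaked between CT 14.7 and CT 17.2. The last 3 calls were lost without 1 library (0.144 and 0.189 without CT 54 for Tra2b and Srsf10, 0.127 without CT 26 for Tra2a). Sqstm1, the autophagy receptor p62, was the called gene of 18 in its list (CT 17.8, 0.0384, then 0.17 without CT 54 and 0.0883 without CT 38 and 50, which left 0 of the 18). Of 18 cell cycle and DNA damage genes 3 passed, Cdkn1a and Wee1 given above and Gadd45g at CT 19.6 (0.0472, and 0.174 without CT 54).

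Other genes of large amplitude stood at each time of day. Nmrk2, a nicotinamide riboside kinase of muscle, ran from 4.96 CPM at CT 34 to 28.4 CPM at CT 26 with a peak at CT 23.6 (adjusted p = 0.00395). Gsta3, a glutathione transferase, ran from 10.7 CPM at CT 30 to 43.4 CPM at CT 18 with a peak at CT 18.8 (5.62e-08), and other copies of that family could share its reads. Angptl7, a secreted angiopoietin-like protein, ran from 1.38 to 11.7 CPM with a peak at CT 19.9, and Mthfd1l, a mitochondrial folate enzyme, from 0.483 to 4.80 CPM with a peak at CT 15.0. F5, coagulation factor V, rested on 1 library: it was at 19.9 CPM at CT 34 with a median of 3.56 CPM, and its adjusted p of 0.00904 became 0.128 without that library. Of 18 redox genes 4 passed (2 without CT 38 and 50), against 5.54% of all genes. Of these 4, the secreted peroxidase Gpx3 peaked at CT 22.4 (0.00538) and Gstt1 at CT 18.0 (0.00728).

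Against younger heart, no single gene passed the test of a difference in rhythm. The test of the difference in cosine between 27- and 6-month heart called 0 of 14805 genes (0%), with 934 at an unadjusted p under 0.05, and that against 18-month heart 0 (0%), with 1409. DESeq2 also called 0 in either comparison, and without filter on low counts edgeR called 397 and 467. The 3 genes with the smallest p against 6-month heart were Fosb, Zbtb46 and Tspan2 (adjusted p = 0.141, 0.593 and 0.593). Fosb, an immediate early transcription factor, ran from 0.145 to 1.46 CPM at 6 months with its 2 highest values at CT 26 and CT 50 (log2 amplitude 1.09). At 27 months it ran from 0.296 to 0.871 CPM with the highest value at CT 38 (log2 amplitude 0.31). Of the 18 immediate early genes 9 were at an unadjusted p under 0.05 for this difference and 0 after adjustment. At 27 months 3 of the 18 were called rhythmic (5.54% of all genes). They were Jun (CT 17.6), Ier3 (CT 15.3) and Ccn1 (CT 0.38, adjusted p = 0.0288, and 0.115 without CT 38 and 50).

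Over genes called in 18-month heart fitted by itself, a choice that used neither age compared, the amplitude at 27 months was lower. The median log2 ratio of the amplitude at 27 months to that at 6 months was -0.33 over 712 genes, and 500 of them had the lower amplitude at 27 months. In an exact permutation test that exchanged the ages within the 12 times (4096 exchanges, two-sided) p was 0.0303, and 0.0605 after adjustment over the 2 measures tested, so the difference did not hold after adjustment. The median peak at 27 months was 0.46 h later, and 430 of the 712 genes peaked later (p = 0.126 in the same exact test, adjusted 0.126). Over the 4095 genes with a rhythm averaged over the 3 ages, the direction turned, with a median of -0.12 h (exact p = 0.845), and the log2 ratio was -0.23 (exact p = 0.202). Leaving out single times gave ratios between -0.37 and -0.26, with p from 0.0127 without CT 54 to 0.0801 without CT 50. Without CT 42 the difference in peak was 0.66 h (p = 0.0361).

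Of the 18 core clock genes 14 had a lower amplitude at 27 than at 6 months, of the 25 matrix genes 11, of the 10 load-responsive genes 2 and of all 14805 genes 8094. The median log2 amplitude of the 18 core clock genes was 0.59 at 27 months and 0.69 at 6 months, and that of the matrix list 0.40 and 0.22. Arntl had a log2 amplitude of 1.76 against 2.26 (adjusted p of the difference in rhythm = 0.883) and Per2 of 1.18 against 1.85 (0.882). Per2 was at 1.97 CPM at CT 26 and 3.51 CPM at CT 50 in 6-month heart and at 7.89 and 12.2 CPM in 27-month heart, so the trough was higher. Col3a1 had a log2 amplitude of 0.92 against 0.52 (0.89) and Lox of 0.99 against 0.28 (0.662), where the 27-month values were 0.57 and 0.69 without CT 38 and 50. None of these differences passed the test.

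**Figure D4:**
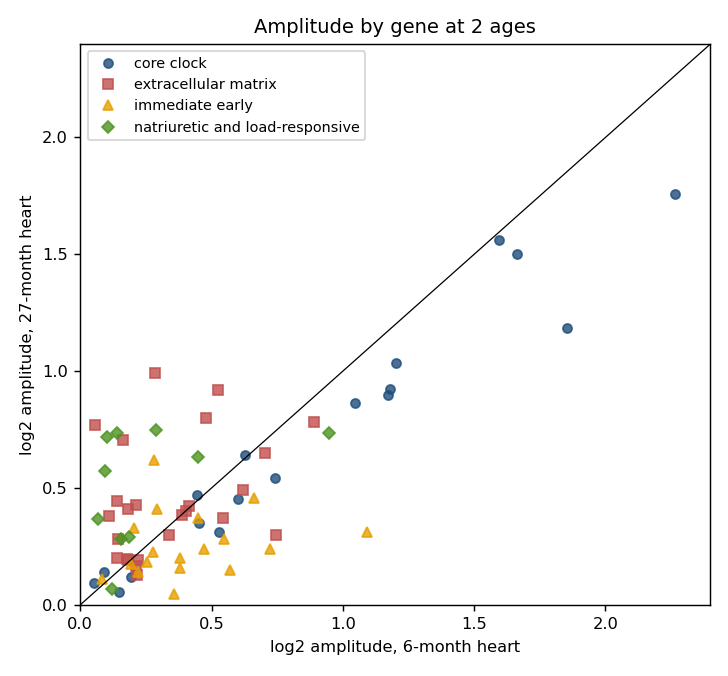
Log2 amplitude in 6-month heart (x axis) and in 27-month heart (y axis) for the genes of 4 lists, with a line at equal amplitude, each point 1 gene. Of the core clock genes 14 of 18 lie under the line, of the matrix genes 14 of 25 and of the load-responsive genes 8 of 10 above it, and the immediate early gene farthest to the right, Fosb, is at 1.09 and 0.31.

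Between tissues at 27 months, few genes had another curve in heart. The difference from kidney was called for 28 of 16440 genes (0.17%) and that from skeletal muscle for 26 (0.158%), with 1128 and 1476 at an unadjusted p under 0.05. DESeq2 called 134 and 130. Of the genes with a called rhythm in 27-month heart 16 differed from kidney, 8 from muscle, and 2 from both. Arntl peaked at CT 0.75 in heart, CT 22.4 ± 0.22 h in kidney and CT 22.4 ± 0.39 h in muscle (adjusted p = 0.00112 and 0.0114). Its levels were 3.31 to 57.7 CPM in kidney and 13.1 to 71.6 CPM in muscle, where the highest library was CT 22 in either case, against CT 26 in heart.

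Rhobtb1 (chr10:69151058-69291791) was lowest in heart at CT 26 with 90.4 CPM, had a median of 137 CPM and was highest at CT 38 with 254 CPM. It peaked at CT 14.5 ± 0.31 h in heart and CT 20.9 ± 0.34 h in kidney, with log2 amplitudes of 0.70 and 0.71 (adjusted p of the same F test = 0.000175). In kidney it ran from 52.7 to 145 CPM and was highest at CT 46. In muscle it ran from 21.4 to 56.3 CPM with a log2 amplitude of 0.16 (adjusted p of the difference = 0.0443, and up to 0.109 without 1 heart library, CT 38). Among genes that differed from kidney were also Npas2 (adjusted p = 0.00108) and Dbp (0.0164), in a test that takes amplitude and peak together. Npas2 had log2 amplitudes of 0.93 in heart and 1.95 in kidney, with peaks at CT 1.999 and CT 23.3. Dbp had log2 amplitudes of 1.79 and 2.61, with peaks at CT 10.2 and CT 9.60. Matrix genes were there too: Col5a3 (0.00837) and Mmp14 (0.0273) had amplitudes of 1.09 and 0.65 in heart and of 0.15 and 0.07 in kidney. In muscle Mmp14 had an amplitude of 0.54 with a peak at CT 2.55, and the difference from heart did not pass (0.955).

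**Figure D5:**
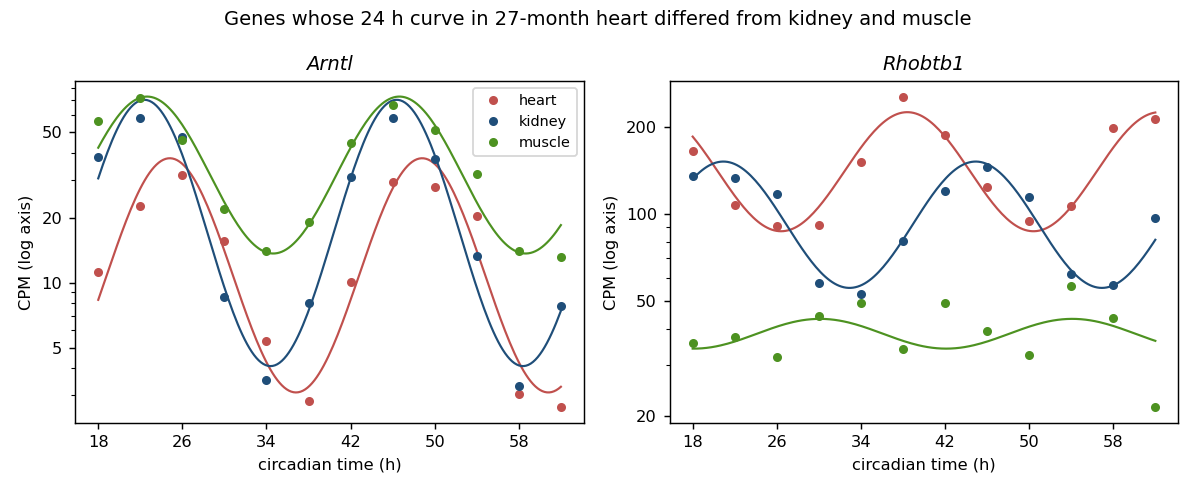
CPM on a log axis (y) against circadian time in hours (x) for Arntl and Rhobtb1 in 27-month heart, kidney and skeletal muscle, 12 libraries each as points with the fitted 24 h cosine as lines. Arntl in heart peaks at CT 0.75, after kidney and muscle at CT 22.4, and Rhobtb1 peaks at CT 14.5 in heart and CT 20.9 in kidney.

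No gene passed the test for a 12 h component added to the 24 h curve (0 of 14805, 0%, edgeR), with 1625 at an unadjusted p under 0.05. The lowest adjusted p was 0.0535, for Nfil3. DESeq2 called 113, and edgeR 135 without the library at CT 58.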

How the data were processed

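Counts per gene were deposited by the authors as whole numbers, not normalised, for 55376 gene names in 216 libraries. The submitters' processing notes name HISAT2, HTSeq, GRCm38 and mm10, without versions, and whether counting used strand is not stated in the sources used here, so genes that overlap or share sequence are uncertain. CPM was computed here as the count over the library total. No 2 of the 12 libraries of 27-month heart agreed within sampling noise (lowest chi-square per degree of freedom 6.96 over 66 pairs).

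The 36 heart libraries were fitted together in edgeR 4.0.16 (R 4.3.3): filterByExpr by age (minimum count 10), TMM, robust quasi-likelihood fit, a mean, cosine and sine for each age, and an F test of cosine and sine. The Benjamini-Hochberg adjustment ran over all genes of a fit. Differences between ages were contrasts of this fit. The 3 tissues at 27 months were fitted in the same way. Amplitude and peak came from least squares on log2 CPM (prior count 2, TMM totals), with SE from 9 residual degrees of freedom. All F tests are two-sided by nature. The fits were tested on simulated data. The F tests set a rhythm against the spread of all 36 pooled libraries of a fit around their fitted curves.

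The rule for naming genes took, per 4 h window, the 4 of largest amplitude with a mean of at least 1 CPM. It also took the 8 with the smallest p, up to 5 called genes per list, and the 3 with the smallest p against each other age. Some genes that the rule took are not named here. Further members of the clock, matrix, load and glucocorticoid lists, and genes differing between tissues, were named after their values were seen. Members and all 25 gene lists were chosen with earlier results of these data known. Other settings tried were median-of-ratios factors, no filter, DESeq2 1.42.0, a linear trend, a separate fit, amplitude and CPM minimums, a prior count of 0.5, omission of each library and, chosen after seeing the data, omission of CT 38 and 50. Some members of the lists are not reported here.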

Additional observations from a re-analysis of the deposited data

Results flagged for a closer look

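Arntl and Rhobtb1 had a called rhythm in 27-month heart and a curve that differed from that of both other tissues by the F test of the difference (edgeR, Benjamini-Hochberg). For Arntl the adjusted p was 0.00112 against kidney and 0.0114 against skeletal muscle, and it stayed under 0.05 without any single heart library (at most 0.00834 and 0.0349). For Rhobtb1 it was 0.000175 against kidney (at most 0.000939 without 1 heart library). Against muscle it was 0.0443, and leaving out any of 9 of the heart libraries ended that call. Groups of 12 libraries were not screened for single extreme values.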

How the results depend on the processing

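The counts of calls were recomputed under each other scaling, filter and tool and without each library. The amplitude ratio and peak difference were recomputed with another prior count, other choices of genes and without each time, and the separate fit and amplitude minimum bear on the rhythm count. Without filter on low counts edgeR called 1963 rhythms in 27-month heart, 397 and 467 differences from 6- and 18-month heart, 459 from kidney, 644 from muscle and 765 genes with a 12 h component, and the cause was not tested. DESeq2 called 1271 rhythms, 134 differences from kidney, 130 from muscle and 113 genes with a 12 h component. A linear trend left 6 differences from muscle, and fitting the 27-month libraries alone left 320 rhythms. Without CT 38 and 50, an alternative chosen after seeing the data, 447 rhythms remained in number, 16 differences from kidney and 14 from muscle.

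Leaving out 1 library gave 474 to 1144 rhythms, 0 to 1 difference from 6-month heart, 0 from 18-month heart, 16 to 39 from kidney, 6 to 91 from muscle and 0 to 135 genes with a 12 h component (lowest and highest for rhythms without CT 54 and CT 42, for muscle without CT 54 and CT 50). The log2 amplitude ratio was -0.37 to -0.26 and the peak difference 0.34 to 0.66 h. Over genes with a rhythm averaged over the 3 ages the ratio was -0.23 (exact permutation p = 0.202) and the peak difference turned to -0.12 h (p = 0.845). Of the 85 called genes that the rule names, 50 passed in every setting run, 28 lost the call without at least 1 library and 25 without CT 38 and 50. The labels carry no replicate numbers, so no fit had a replicate block, and the exact test of amplitude and peak paired the ages by circadian time. With 1 library per time, the depth per library limits genes of few counts, such as Adamts4 and Fosb.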
